A study of Mus musculus with 6 samples.

Results

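The transcripts of 34 proteasome genes were examined in macrophages from 2 genotypes, wild type (WT) and progranulin knockout (PGRN KO), after challenge with the yeast Candida albicans. The genes were taken by symbol from the deposited table of 54532 genes: Psma1 to Psma7 and Psmb1 to Psmb7, which form the core particle (14 genes), and Psmc1 to Psmc6 and Psmd1 to Psmd14, which form or assemble the regulatory particle (20 genes). The rule did not use measured values. All 34 genes were found and all 34 passed the filter on low values. The series held 3 WT libraries (replicates 1, 2 and 3) and 3 PGRN KO libraries (replicates 4, 5 and 6), all from C57BL/6J mice and all from cells kept with live fungus for 6 hours, so that no library gave an unchallenged baseline, although the WT titles carry the word control. By the labels, the cells were macrophages of the peritoneal cavity, 2000000 per well with 1 fungal cell for each macrophage. The text of the study instead calls the sequenced cells bone marrow-derived macrophages and gives another ratio of fungus to cells, and the labels were followed here. The methods of the study name different suppliers for the knockout and the WT mice, so genotype and supplier cannot be told apart. The labels gave no age or sex, and did not say whether the libraries came from separate animals. The p-values therefore measure the spread between these libraries, which may be technical.

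The proteasome degrades proteins that carry ubiquitin chains. Its core particle is a hollow cylinder whose outer rings are built from alpha subunits and whose inner rings are built from beta subunits, and the proteolytic sites lie on the beta subunits encoded by Psmb5, Psmb6 and Psmb7. The regulatory particle caps the core. Its base holds a ring of ATPases (Psmc genes) that unfolds the substrate, and its lid holds the deubiquitinase Psmd14, while Psmd4 is a receptor for ubiquitin chains. Psmd5, Psmd9 and Psmd10 carry the name of regulatory subunits but encode chaperones that help to assemble the base and leave the finished particle. In cells exposed to interferon, the catalytic subunits are replaced in newly built particles by Psmb8, Psmb9 and Psmb10, which form the immunoproteasome and favour peptides suited to presentation on MHC class I. Many proteasome genes are activated by the transcription factors encoded by Nfe2l1 and Nfe2l2, which bind antioxidant response elements.

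The promoters of the genes were searched for the core of that element, TGACNNNGC, on both strands, because Nfe2l2 differed between the genotypes. RefSeq promoters (GRCm38.p6, 250 bases before to 50 bases after the gene start) were found for 28 of the 34 genes, 30 promoters in all. Psmb1, Psmb2, Psmb7, Psmc3, Psmd3 and Psmd7 had no entry. The motif was present in 5 of the 30 promoters, or 16.7%, against 4071 of all 32851 promoters in the table, or 12.4%. The 5 matches are shown with up to 20 bases on either side inside the promoter window and before the gene start, with the motif in capitals. In Psmb5, Psmb6 and Psmd9 it read on the strand of the gene, and in Psmc6 and Psmd12 on the opposite strand.
Psmb5 (chr14:54618014-54618062, minus strand): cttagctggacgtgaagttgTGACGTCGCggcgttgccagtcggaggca
Psmb6 (chr11:70525328-70525356, plus strand): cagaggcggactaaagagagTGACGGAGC
Psmc6 (chr14:45329577-45329625, plus strand): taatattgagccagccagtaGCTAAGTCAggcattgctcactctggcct
Psmd12 (chr11:107479278-107479309, plus strand): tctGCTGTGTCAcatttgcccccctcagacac
Psmd9 (chr5:123228139-123228187, plus strand): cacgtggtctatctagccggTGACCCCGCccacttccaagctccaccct
Counted from the gene start, with negative positions before it, the motif began at -47 in Psmb5, -9 in Psmb6, -31 in Psmd9, -227 in Psmc6 and -247 in Psmd12. A match is a description of the letters only.

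The libraries held 15996786 to 17551619 fragments, recovered from the deposited FPKM (fragments per kilobase of gene model, divided by library size). Each proteasome gene had between 154 (Psmd5) and 16521 (Psmd8) fragments per library. Grn, the gene for progranulin, was at 323 to 337 FPKM in WT and at 0 to 0.0167 FPKM in PGRN KO. All 7 macrophage markers were detected in every library. PGRN KO replicate 6 stood apart from the other 5 libraries: its Pearson r with replicates 4 and 5 across genes was 0.971 and 0.972, while those replicates had an r of 0.992 with each other, and limma gave it a quality weight of 0.0899, against 1.07 to 3.79 for the others. The main counts of genes called are therefore given with and without that library. Over all 8882 genes tested, 921 were higher and 1230 were lower in PGRN KO (limma, Benjamini-Hochberg adjusted p below 0.05), and on a TPM scale, where each library has the same sum, 922 were higher and 608 lower.

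No proteasome gene passed the test with all 6 libraries. By limma with Benjamini-Hochberg adjustment, 0 of 34 were called higher, against a background of 10.4% of all genes tested, and 0 of 34 were called lower, against 13.8%. At an unadjusted p below 0.05 there were 6 of 34 genes, a smaller share than the 3469 of all 8882 genes tested. They were 3 core genes above WT (Psma4, Psma5, Psma7) and 3 regulatory genes below WT (Psmc6, Psmd1, Psmd12). After adjustment, limma voom on the recovered fragments also called 0. The lowest adjusted p was 0.0609, for Psmd12. The fitted log2 fold changes, on the log2(FPKM + 1) scale, had a median of 0.21 over the core genes (from -0.12 to 0.49, 11 of 14 above 0) and of 0.03 over the regulatory genes (from -0.35 to 0.21, 12 of 20 above 0), beside a median of -0.03 over all genes.

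**Figure D1:**
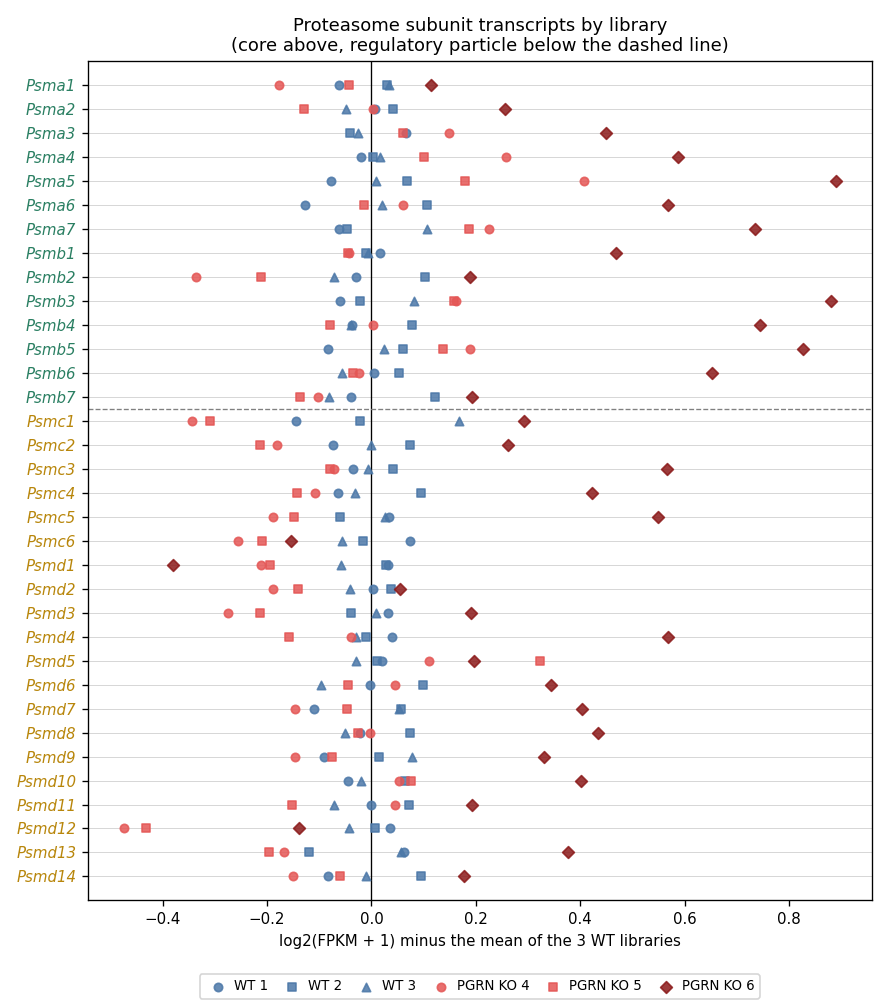
Level of each of the 34 proteasome genes in each library, as log2(FPKM + 1) minus the mean of the 3 WT libraries (x axis), with the core genes above and the regulatory particle genes below the dashed line. PGRN KO replicate 6 (dark diamonds) is the highest library for 30 of the 34 genes, against 34.3% of all genes tested. Replicates 4 and 5 lie to the left of all WT points for 12 of the 20 regulatory genes, among them Psmd12, Psmc1 and Psmd3. Of all genes tested, 37.0% were lower in replicates 4 and 5 than in any WT library.

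PGRN KO replicate 6 was the highest of the 6 libraries for 30 of the 34 genes (14 of 14 core genes and 16 of 20 regulatory genes), whereas it was the highest library for 34.3% of all genes tested. The 4 exceptions were Psmd12, Psmc6, Psmd1 and Psmd5. Relative to the mean of PGRN KO replicates 4 and 5, replicate 6 was higher by a median of 0.45 on the log2 scale over the 34 genes, 0.52 over the core genes and 0.44 over the regulatory genes, compared with 0.04 over all genes. The offset of this library varied with gene length. With all genes ranked by the length of their gene model and cut into 5 groups of like size, its median was 0.38 in the group of shortest models, then 0.25, 0.07 and -0.10, and -0.32 in the group of longest models. The proteasome genes had shorter gene models than the genes tested in general, with a median of 2814 bases (899 to 7265) against 3856 bases. The part of length in the offset of these genes was not tested. After a correction of each library for gene length, the core median was 0.15 and the regulatory median -0.00.

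**Figure D2:**
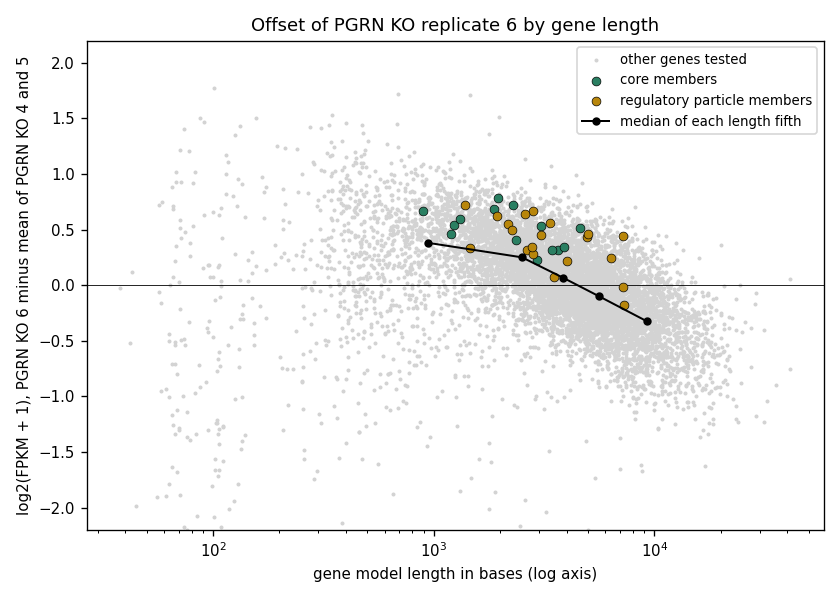
Offset of PGRN KO replicate 6 from the mean of PGRN KO replicates 4 and 5 in log2(FPKM + 1) (y axis) against gene model length (x axis, log scale), for all genes tested (grey), core genes (green) and regulatory particle genes (ochre), with the median of each of 5 length groups as a black line that falls from 0.38 to -0.32. The axis ends at 2.2 in each direction and leaves out 5 genes. Of the 34 proteasome genes, 32 lie above 0.

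Core and regulatory genes stood at different distances from WT within each PGRN KO library, replicate 6 included. Expressed as the median over genes relative to the WT mean, the core genes stood at -0.04, 0.05 and 0.00 in WT replicates 1, 2 and 3, at 0.03 and -0.02 in replicates 4 and 5 of PGRN KO and at 0.58 in replicate 6. The regulatory genes stood at -0.00, 0.03 and -0.02 in WT and at -0.15, -0.14 and 0.31 in PGRN KO. The difference between them, core minus regulatory, was -0.04, 0.01 and 0.03 in WT and 0.18, 0.12 and 0.27 in PGRN KO. The WT and PGRN KO libraries did not overlap in this difference, and no test was made of it. Each library was set against the WT mean, so the WT differences lie near 0 by construction. At these levels the difference depends little on the size assumed for a library. The core genes had shorter gene models, with a median of 2335 bases against 2938.5 bases for the regulatory genes. The part of length in the difference was not tested.

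Without PGRN KO replicate 6, with 2 PGRN KO libraries left, limma called 1 gene higher and 9 genes lower at a Benjamini-Hochberg adjusted p below 0.05. The share of lower genes was close to the background of 25.1% of all genes called lower, and the share of higher genes was below the background of 16.2%. The 9 lower genes were Psmb2 from the core and 8 of the 20 regulatory genes: Psmc1, Psmc2, Psmc5, Psmc6, Psmd1, Psmd2, Psmd3 and Psmd12. The higher gene was Psma5. The core median was -0.00 and the regulatory median -0.12, with 17 of 20 regulatory genes below 0, beside a median of -0.04 over all genes. How many genes were called lower depended on how the libraries were scaled. On a TPM scale without replicate 6, 4 genes were called higher (background 21.2%) and 1 lower (background 11.8%). After quantile normalization 5 were higher (18.5%) and 1 lower (21.0%), and with the sum of recovered fragments as library size 5 were higher (21.6%) and 1 lower (13.7%). These fits were chosen after seeing the data. In all 3 of them the lower gene was Psmd12, the higher genes included Psma4, Psma5, Psma7 and Psmb5, and Psmb3 was added by the last 2. The regulatory median was 0.01, -0.04 and -0.01 in these fits and the core median 0.14, 0.14 and 0.13. The regulatory genes below 0 numbered 10, 12 and 10 of 20, so their count also depended on the scaling. The TPM scale moved the median of all genes from -0.04 to 0.08.

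**Figure D3:**
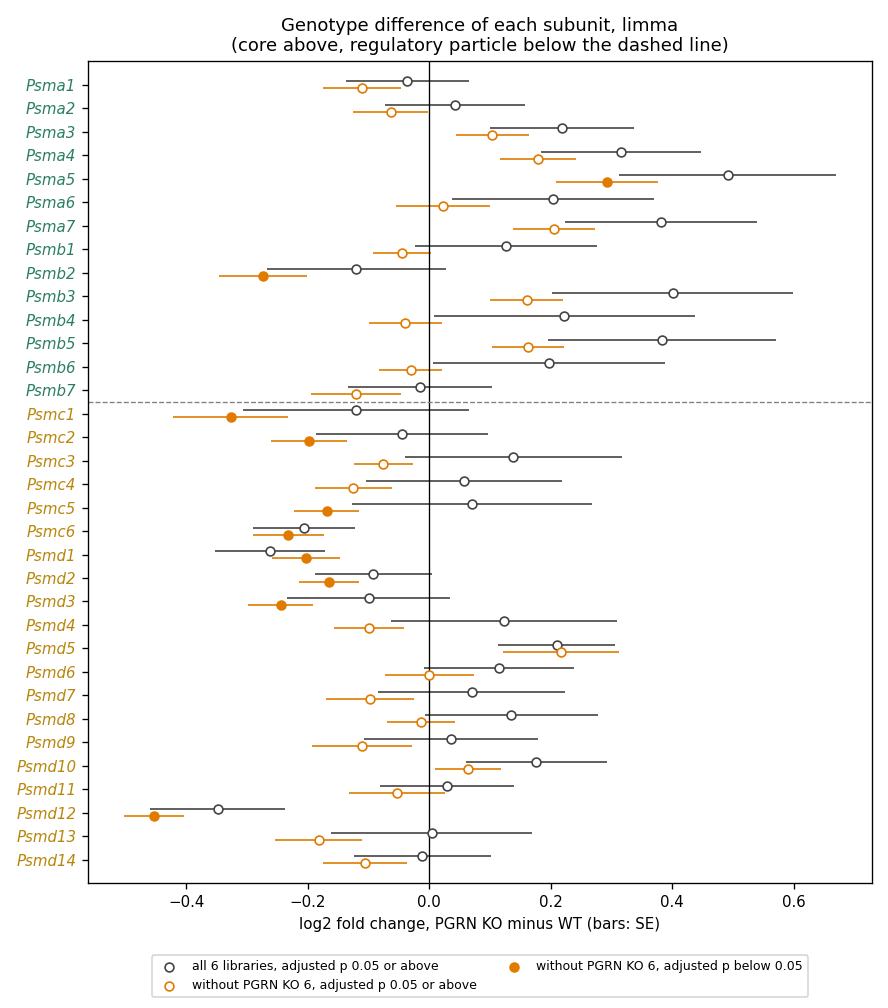
Fitted log2 fold change of each gene, PGRN KO minus WT, with its SE from limma, for all 6 libraries (grey) and without PGRN KO replicate 6 (orange), core genes above and regulatory particle genes below the dashed line. Filled points passed an adjusted p of 0.05: no gene with all 6 libraries, and without replicate 6 Psma5 on the higher side and 9 genes on the lower side.

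Among the alpha subunits of the core, Psma5 had the highest log2 fold change. Psma5 (ENSMUSG00000068749, chromosome 3, 108256926 to 108279974, GRCm38) was at 36.1, 40.0 and 38.3 FPKM in WT and at 50.8, 43.3 and 71.5 FPKM in replicates 4, 5 and 6 of PGRN KO, and every PGRN KO library was above every WT library. The log2 fold change was 0.49 ± 0.18 (SE) with all libraries (limma, Benjamini-Hochberg adjusted p = 0.0876) and 0.29 ± 0.08 without replicate 6 (adjusted p = 0.0354). After correction of each library for gene length it was also called, with an adjusted p of 0.0261. Of the words of 31 bases in the Psma5 gene model, 58.7% recur in other annotated genes, among them the pseudogenes Gm8394 and Gm12989, which took 9.65% and 6.36% of the fragments counted jointly with Psma5. How the counting split such fragments is uncertain. Psma4 and Psma7 were likewise above WT in every PGRN KO library, with log2 fold changes of 0.32 and 0.38, and their adjusted p of 0.125 and 0.122 (limma, Benjamini-Hochberg) did not pass the threshold. The 7 alpha genes had a median log2 fold change of 0.22 with all libraries and 0.10 without replicate 6. Psma3 was counted at 21.6 to 30.8 FPKM, while its processed pseudogene Gm13835, of 685 bases, took 34.9% of the fragments counted jointly with it.

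The catalytic subunits of the core kept their order of FPKM in every library, Psmb6 above Psmb5 above Psmb7. Psmb5 (ENSMUSG00000022193, chromosome 14, 54614119 to 54618022, minus strand) encodes the chymotrypsin-like site and was at 90.8, 100.4 and 98.0 FPKM in WT and at 110.0, 106 and 172 FPKM in PGRN KO. All PGRN KO libraries were above all WT libraries. The log2 fold change was 0.38 ± 0.19 (limma, Benjamini-Hochberg adjusted p = 0.173), and 0.16 ± 0.06 without replicate 6 (adjusted p = 0.0751). Psmb5 shares 71.7% of its words of 31 bases with other annotated genes, of which Gm3375 took 2.27% of the joint fragments, and it holds the microRNA gene Mir686 over 12.1% of its exon length. Psmb6 (ENSMUSG00000018286), the caspase-like site, was at 141, 145 and 135 FPKM in WT and at 138, 137 and 221 FPKM in PGRN KO, and the groups overlapped. Its log2 fold change of 0.20 ± 0.19 was -0.03 ± 0.05 without replicate 6. Psmb7 (ENSMUSG00000026750), the trypsin-like site, was at 15.8, 17.8 and 15.3 FPKM in WT and at 15.1, 14.7 and 18.8 FPKM in PGRN KO, with overlapping groups and a log2 fold change of -0.02 ± 0.12. Exons of Nek6 on the opposite strand cover 11.8% of the Psmb7 gene model, and the kit does not mark strand.

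The other beta subunits have no catalytic site. Psmb2 was at 51.0, 56.0 and 49.5 FPKM in WT and at 41.1, 44.9 and 59.5 FPKM in PGRN KO. The values of replicates 4 and 5 lay below WT and that of replicate 6 above it. Its log2 fold change was -0.12 ± 0.15 with all libraries and -0.27 ± 0.07 without replicate 6, where it passed the test (limma, Benjamini-Hochberg adjusted p = 0.0274). It was the only core gene called lower in that fit. Psmb3 was above WT in every PGRN KO library, with a log2 fold change of 0.40 ± 0.20, while Psmb1 and Psmb4 had values of 0.13 and 0.22 that became -0.04 and -0.04 without replicate 6.

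Counted over both particles, 6 genes were higher in every PGRN KO library than in any WT library (Psma4, Psma5, Psma7, Psmb3, Psmb5 and Psmd5), against 21.2% of all genes tested, and 3 were lower in every one (Psmc6, Psmd1 and Psmd12), against 27.6%. Neither share of the 34 was above that background. Without replicate 6 there were 6 higher genes, against 27.6%, and 15 lower genes, against 37.0%, and 12 of those 15 belonged to the regulatory particle.

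Of the lid, Psmd12 had the lowest log2 fold change with and without replicate 6. Psmd12 (ENSMUSG00000020720, chromosome 11, 107479484 to 107504362) encodes a scaffold subunit of the lid. It was at 45.8, 44.9 and 43.4 FPKM in WT and at 31.9, 32.9 and 40.5 FPKM in PGRN KO, and all 3 PGRN KO libraries lay below all WT libraries. The log2 fold change was -0.35 ± 0.11 (limma, Benjamini-Hochberg adjusted p = 0.0609) and -0.45 ± 0.05 without replicate 6 (adjusted p = 0.0017), and with the correction for gene length it passed the test with all 6 libraries (-0.40, adjusted p = 0.0071). Psmd3, also of the lid, was at 17.6, 16.7 and 17.3 FPKM in WT and at 14.0, 14.7 and 19.8 FPKM in PGRN KO. It was lower in replicates 4 and 5 and higher in replicate 6, and without the latter its log2 fold change was -0.24 ± 0.05 (limma, adjusted p = 0.0144). Psmd14, the deubiquitinase that removes ubiquitin chains from substrates, was at 35.5, 40.3 and 37.4 FPKM in WT and at 33.9, 36.1 and 42.8 FPKM in PGRN KO. The groups overlapped and its log2 fold change was -0.01 ± 0.11. The 8 lid genes ranged from -0.35 to 0.14, with a median of 0.02 that became -0.10 without replicate 6.

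Of the base, the 6 ATPase genes had a median log2 fold change of 0.01 with all libraries and -0.18 without replicate 6. In the latter fit each was below 0 and 4 were called lower, against 25.1% of all genes tested. None of these 4 was called without replicate 6 on the TPM scale, after quantile normalization or with the fragment sum as library size. The values of Psmc3 in those fits were above 0, at 0.07, 0.02 and 0.05. Psmc1 was at 37.5, 41.0 and 46.8 FPKM in WT and at 32.6, 33.4 and 51.2 FPKM in PGRN KO, a wide spread in both genotypes. Without replicate 6 its log2 fold change was -0.33 ± 0.09 (limma, Benjamini-Hochberg adjusted p = 0.0361). Psmc6 was at 32.6, 30.6 and 29.7 FPKM in WT and at 25.8, 26.7 and 27.7 FPKM in PGRN KO. Replicate 6 lay below WT together with replicates 4 and 5, and its log2 fold change was -0.21 ± 0.08 with all libraries (adjusted p = 0.115) and -0.23 ± 0.06 without replicate 6 (adjusted p = 0.0232). Psmc2 was at 11.8, 13.1 and 12.4 FPKM in WT and at 10.8, 10.6 and 15.1 FPKM in PGRN KO, again with replicate 6 above WT and the other two below it. Its log2 fold change without replicate 6 was -0.20 ± 0.06 (adjusted p = 0.0490), and Psmc5 had -0.17 ± 0.05 in that fit (adjusted p = 0.0478).

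Among the non-ATPase subunits of the base, the scaffold gene Psmd1 was at 11.4, 11.3 and 10.6 FPKM in WT and at 9.44, 9.57 and 8.29 FPKM in PGRN KO. The PGRN KO libraries were all below WT, and replicate 6 was the lowest. The log2 fold change was -0.26 ± 0.09 (limma, Benjamini-Hochberg adjusted p = 0.0765) and -0.20 ± 0.06 without replicate 6 (adjusted p = 0.0324). Psmd1 has the longest gene model of the 34 genes, 7265 bases. After correction of each library for gene length it was at -0.16 with all libraries (limma, adjusted p = 0.109) and -0.17 without replicate 6 (adjusted p = 0.0461). Psmd2, the other scaffold of the base, had log2 fold changes of -0.09 ± 0.10 and, without replicate 6, -0.17 ± 0.05 (adjusted p = 0.0412). Psmd4, the ubiquitin receptor, was at 34.1, 32.9 and 32.4 FPKM in WT and at 32.2, 29.6 and 49.6 FPKM in PGRN KO, and did not pass the test with replicate 6 (0.12 ± 0.19) or without it (-0.10 ± 0.06, limma, adjusted p = 0.219).

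None of the 3 assembly chaperones was called with or without replicate 6. Psmd5 was at 1.45, 1.44 and 1.37 FPKM in WT and at 1.61, 2.03 and 1.78 FPKM in PGRN KO. It was the only regulatory gene above WT in every PGRN KO library, with a log2 fold change of 0.21 ± 0.10 (limma, Benjamini-Hochberg adjusted p = 0.151), a value that the pseudocount of 1 understates at this level. Psmd9 was at 2.37, 2.62 and 2.78 FPKM in WT and at 2.24, 2.40 and 3.51 FPKM in PGRN KO, with overlapping groups and a log2 fold change of 0.04 ± 0.14. Exons of Gm26745 on the opposite strand cover 25.5% of its gene model. Psmd10, also known as gankyrin, was at 22.9, 24.7 and 23.3 FPKM in WT and at 24.5, 24.9 and 31.5 FPKM in PGRN KO, with overlapping groups and a log2 fold change of 0.18 ± 0.12.

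The levels of the 34 genes in WT spanned a wide range even per length. Among the subunits of the finished particle, the WT mean per kilobase of gene model ran from 11.1 FPKM for Psmd1 to 231 FPKM for Psmd8, a lid subunit. The chaperones Psmd5 and Psmd9 lay below that range, at 1.42 and 2.59 FPKM. Gene models join all exons of a gene, so the level was also scaled to the length of a single mRNA. The mRNA with the longest coding sequence was taken, and the longest of these where several tied. Which mRNA the cells used was not tested. On that scale Psmd8 (459), Psmb6 (329), Psmb4 (165) and Psma6 (113) were the highest and Psmd10 (24.3), Psmd9 (7.23) and Psmd5 (2.34) the lowest. The 3 chaperones thus took the last ranks per length of mRNA, but not per gene model. Ranks shifted between the scales, for Psmd10 from 18 by gene model to 32 by mRNA. Psma7, a core gene, moved from rank 19 by gene model to rank 7 by mRNA.

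Beside these constitutive catalytic subunits, their inducible counterparts rose in PGRN KO. Psmb8, which replaces Psmb5, was at 27.2, 30.0 and 27.8 FPKM in WT and at 51.2, 40.7 and 89.1 FPKM in PGRN KO. Psmb9, which replaces Psmb6, was at 6.60, 7.26 and 6.12 FPKM in WT and at 17.2, 13.9 and 25.6 FPKM in PGRN KO. Psmb10, which replaces Psmb7, was at 33.1, 35.8 and 30.7 FPKM in WT and at 57.5, 45.7 and 101 FPKM in PGRN KO. All PGRN KO libraries were above all WT libraries for the 3 genes, and replicate 6 was the highest each time. The log2 fold changes were 0.99 ± 0.26 for Psmb8 (limma, Benjamini-Hochberg adjusted p = 0.0357), 1.34 ± 0.21 for Psmb9 (adjusted p = 0.0063) and 0.93 ± 0.27 for Psmb10 (adjusted p = 0.0442). Without replicate 6 they were 0.67, 1.10 and 0.61, with adjusted p of 0.0044, 0.0012 and 0.0078. Psmb9 passed the test in every fit that left out a library. Psmb8 lost its call without WT replicate 1, 2 or 3 (adjusted p 0.117, 0.0999 and 0.104) or PGRN KO replicate 4 (0.0634), and Psmb10 lost it in the same fits (0.127, 0.111, 0.130 and 0.0732). With no filter on low values both also lost it (0.105 and 0.125).

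Within a library, the ratio of the inducible to the constitutive member of a pair does not depend on library size. Psmb9 made up 4.53% ± 0.211 of the summed FPKM of Psmb9 and Psmb6 in WT, against 10.2% ± 0.933 in PGRN KO (SD, 3 libraries each), and the ratio was 2.40-fold higher. Psmb8 made up 22.7% ± 0.527 of its pair with Psmb5 in WT and 31.2% ± 3.25 in PGRN KO, and the ratio was 1.54-fold higher. Psmb10 made up 67.0% ± 0.532 of its pair with Psmb7 in WT and 79.7% ± 4.34 in PGRN KO, and the ratio was 1.96-fold higher. These percentages depend on the gene model lengths used as divisors, which cancel in the fold differences of the ratios. The WT mean of Psmb7, for example, was 16.3 FPKM by gene model and 48.1 when scaled to mRNA length. An offset of a library that varies with gene length, as in replicate 6, does not cancel where paired genes differ in length. The gene models of Psmb10 and Psmb7 have 1705 and 3421 bases, and the part of length in these ratios was not tested. The groups did not overlap in any of the 3 ratios, and without replicate 6 the log2 ratios still differed by 1.25 for Psmb9, 0.53 for Psmb8 and 0.76 for Psmb10. The exact two-sided permutation test gave p = 0.1 for each, the smallest value that 3 libraries against 3 allow.

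**Figure D4:**
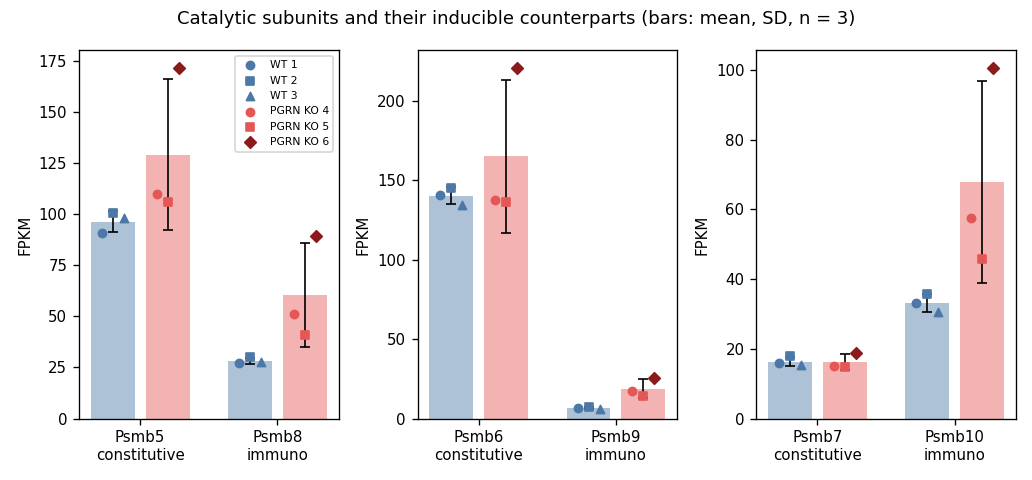
FPKM of the catalytic subunits Psmb5, Psmb6 and Psmb7 beside their inducible counterparts Psmb8, Psmb9 and Psmb10, with bars for the mean, error bars for the SD (n = 3) and points for the libraries, WT in blue and PGRN KO in red. The inducible genes are higher in all 3 PGRN KO libraries, while Psmb6 and Psmb7 overlap between genotypes.

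Markers of other cells moved with genotype beside the immunoproteasome genes. The summed level of the 4 B cell markers was 1.41 to 2.47 FPKM in WT and 6.31 to 8.77 FPKM in PGRN KO, and that of the 4 mast cell markers was 2.01 to 2.76 and 8.97 to 13.7 FPKM. All 4 markers of each list were higher in every PGRN KO library than in any WT library, against 21.2% of all genes tested. The 5 neutrophil markers summed to 48.3 to 53.0 FPKM in WT and 21.2 to 26.0 FPKM in PGRN KO. Ly6g and Elane were at 0 throughout. Only 1 of the 5 was lower in every PGRN KO library than in any WT library, against 27.6% of all genes tested. The 4 T cell markers summed to 2.00 to 2.79 and 2.30 to 4.41 FPKM, and 2 of them were higher in every PGRN KO library. The 3 mesothelial markers summed to 0.064 to 0.192 and 0.016 to 0.137 FPKM, with Lrrn4 at 0, and none separated the genotypes. The 7 macrophage markers summed to 11609 to 12553 FPKM in WT and 10440.4 to 14367 FPKM in PGRN KO. Of these, 2 were higher and 2 were lower in every PGRN KO library than in any WT library. In bulk samples, fewer cells of a type and less RNA per cell cannot be told apart, and the part of these cells in the proteasome results was not tested.

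Among the other genes of the pathway, 41 were listed, 40 were in the table and 36 passed the filter. With all 6 libraries 7 of the 36 were called higher, against 10.4% of all genes tested, and 4 were called lower, against 13.8%. The regulators of proteasome transcription were headed by Nfe2l2, at 41.6, 42.4 and 38.3 FPKM in WT and at 24.3, 25.1 and 22.9 FPKM in PGRN KO. All 3 PGRN KO libraries were below WT, the log2 fold change was -0.74 ± 0.09 (limma, Benjamini-Hochberg adjusted p = 0.0029), and it was called in every fit that left out a library. Nfe2l1 was at 41.1 to 43.2 FPKM in WT and 36.0 to 38.3 FPKM in PGRN KO, with a log2 fold change of -0.17 ± 0.08 (adjusted p = 0.154). Ddi2, the protease that activates the product of Nfe2l1, was not called, and Ngly1 did not pass the filter.

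Of the chaperones that assemble the core, 2 were called higher with all libraries. Psmg2 rose by 0.81 ± 0.13 (limma, Benjamini-Hochberg adjusted p = 0.0078), from 0.942 to 1.19 FPKM in WT to 2.00 to 3.01 FPKM in PGRN KO, and its partner Psmg1 by 0.29 ± 0.09 (adjusted p = 0.0469). The call of Psmg1 was lost in each fit that left out 1 library other than PGRN KO replicate 6 (adjusted p 0.0969 to 0.170). It was also lost after quantile normalization (0.0631) or length correction (0.203), with voom (0.125), a pseudocount of 0.1 (0.0507) or no filter (0.113), and on the TPM scale (0.0878). Psmg2 kept its call in every fit named here. Pomp, the maturation factor of the core, was above WT in all 3 PGRN KO libraries at 0.48 ± 0.21 but passed the test only without replicate 6 (0.24, adjusted p = 0.0359). Psmg4 was not called and Psmg3 did not pass the filter.

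Of the activators and the inhibitor of the core, Psmf1, the inhibitor, rose by 0.42 ± 0.12 (limma, Benjamini-Hochberg adjusted p = 0.0475). It lost its call without WT replicate 1, 2 or 3 (adjusted p 0.101, 0.157 and 0.138) or without PGRN KO replicate 5 (0.0879), with no filter (0.122) and after quantile normalization (0.0699). Psme1 and Psme2, which form the activator induced by interferon, had log2 fold changes of 0.26 ± 0.18 and 0.62 ± 0.27 and were not called (adjusted p = 0.320 and 0.133). Psme4 was called higher only without replicate 6 (0.26, adjusted p = 0.0274), and Psme3 was not called.

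Among factors bound to the regulatory particle, Usp14, a deubiquitinase, fell by 0.38 ± 0.10 (limma, Benjamini-Hochberg adjusted p = 0.0322). This call was lost without WT replicate 1, 2 or 3 (adjusted p 0.136, 0.102 and 0.0936) or PGRN KO replicate 4 (0.0665), with no filter (0.0661), on the TPM scale (0.175) and with the fragment sum as library size (0.122). Adrm1, a ubiquitin receptor, was at 19.9, 20.5 and 21.4 FPKM in WT and at 15.8, 15.1 and 23.4 FPKM in PGRN KO, the same split of replicate 6 from replicates 4 and 5 as for Psmd3. It was called lower only without replicate 6 (-0.39, adjusted p = 0.0033), as was Sem1 (-0.22, adjusted p = 0.0172). Uchl5 was not called. Ecpas, an adaptor of the proteasome, was called higher and Akirin2, a factor for nuclear import of the proteasome, lower only without replicate 6 (0.25, adjusted p = 0.0154, and -0.26, adjusted p = 0.0434).

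Of the factors that carry substrates to the proteasome, those called with all libraries were lower in PGRN KO. Rad23b fell by 0.49 ± 0.09 (limma, Benjamini-Hochberg adjusted p = 0.0104) and Ubqln2 by 0.42 ± 0.11 (adjusted p = 0.0358). Rad23b lost its call without WT replicate 1 or 2 (0.0598 and 0.0570), and Ubqln2 without WT replicate 1, 2 or 3 (0.122, 0.134 and 0.0826) or PGRN KO replicate 4 (0.0765), with no filter (0.0806), on the TPM scale (0.147) and with the fragment sum (0.101). Nsfl1c, a cofactor of the unfoldase Vcp, rose by 0.57 ± 0.12 (adjusted p = 0.0182), a call that was lost without WT replicate 1, 2 or 3 (0.0669, 0.0783 and 0.0667) or with no filter (0.0531). Without PGRN KO replicate 6 the called genes of the lists numbered 11 higher, against 16.2% of all genes tested, and 11 lower, against 25.1%. Among those not yet named were Ubqln4 (-0.26, adjusted p = 0.0358), Vcp (-0.33, adjusted p = 0.0034), its cofactor Nploc4 (-0.21, adjusted p = 0.0149) and the ubiquitin gene Ubb (-0.71, adjusted p = 0.0018), all called lower. The ubiquitin gene Rps27a, the activating enzymes Uba1 and Uba6, and Ubqln1 and Ufd1 were called in neither fit. Psma8 and Psmb11, core subunits of the testis and the thymus, did not pass the filter, and Psmb11 was at 0 in every library.

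**Figure D5:**
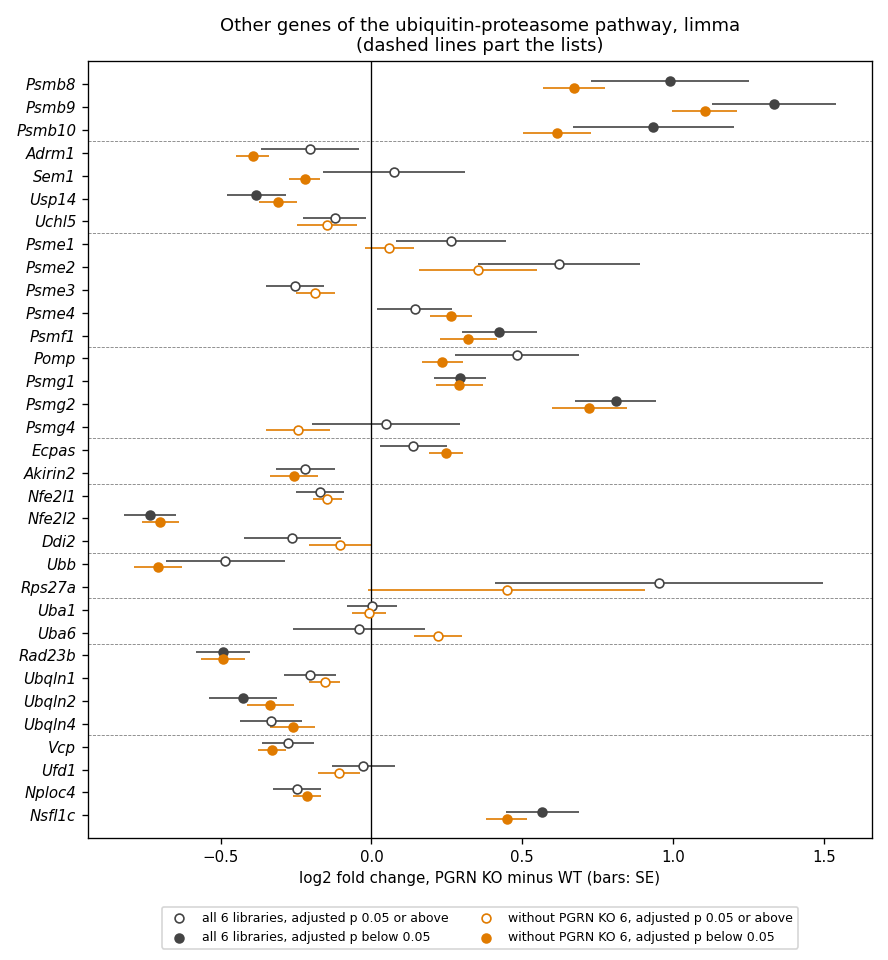
Log2 fold change, PGRN KO minus WT, with its SE from limma for 33 of the 36 other genes of the pathway that passed the filter, with all 6 libraries (grey) and without PGRN KO replicate 6 (orange), filled where the adjusted p was below 0.05. Psmb8, Psmb9, Psmb10 and Psmg2 lie to the right and Nfe2l2, Rad23b and Ubqln2 to the left in both fits.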

How the data were processed

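Polyadenylated transcripts of 6 libraries were sequenced. The authors deposited FPKM per gene. The submitters' processing notes name CASAVA, HISAT2 2.0.5, featureCounts 1.5.0-p3, DESeq2 1.20.0 and the build GRCm38, while the methods of the study name HISAT and HTSeq. Strand use in counting was not given in the sources used here. All 34 genes had the coordinates of GENCODE M21. Deposited FPKM times gene length were whole multiples of 1 step for 100% of values, which gave the fragments per library (15996786 to 17551619) and showed that library sizes already carried a factor of 0.925 to 1.09.

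Values were analysed as log2(FPKM + 1), which understates changes of low genes. The 8882 genes whose FPKM averaged 1 or more across the 6 libraries were tested with limma 3.58.1 in R 4.3.3 (empirical Bayes with a trend, no covariates, two-sided), with Benjamini-Hochberg adjustment over all of them and a threshold of 0.05. The test was first tested on simulated data. Tables and figures were made with Python 3.11.15, pandas 2.3.3 and matplotlib 3.10.9. Alternatives were a pseudocount of 0.1, no filter, a mean FPKM of at least 5, a TPM scale, quantile normalization, the fragment sum as library size, no trend, sample quality weights, voom, a loess correction for gene length (span 0.5) with and without PGRN KO replicate 6, and the omission of each library in turn. The 3 scalings without that replicate were chosen after seeing the data.

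Libraries were named as in the labels. Values of every library are given for the catalytic subunits, Psmd14, Psmd4, the chaperones of the base and genes called with all libraries or without PGRN KO replicate 6 (at most 6 in each direction and particle, by size of change), and of the pathway lists the called genes and 8 others were named, except that 3 listed genes are counted but not reported here by name. The genes and lists were chosen with earlier results of these data known.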

Additional observations from a re-analysis of the deposited data

How the results depend on the processing

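With all 6 libraries as reported 0 proteasome genes were called higher and 0 lower. The number called higher was 4 after quantile normalization, 1 on the TPM scale, 2 with the fragment sum as library size, 4 with sample quality weights, 1 after length correction and 5 after length correction without PGRN KO replicate 6. The number called lower was 1 after quantile normalization, 6 with quality weights, 1 after length correction and 6 after length correction without replicate 6. Of all genes tested in the same fits, 12.0% were called higher and 12.5% lower after quantile normalization, 10.4% higher on the TPM scale, 13.3% higher with the fragment sum, 19.8% and 27.8% with quality weights, 14.9% and 16.8% after length correction, and 18.5% and 22.8% after length correction without replicate 6. Without replicate 6, the TPM scale gave 4 higher and 1 lower, and quantile normalization and the fragment sum each gave 5 higher and 1 lower. Leaving out 1 library gave 0 to 1 higher and 0 to 9 lower genes, the 1 being Psma5 without PGRN KO replicate 5 or 6 and the 9 without replicate 6, where the core median of 0.21 became -0.00 and the regulatory median of 0.03 became -0.12.

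Values that changed sign without being called were as follows. On the TPM scale Psma1 was 0.016, Psmb7 0.036, Psmc2 0.005 and Psmd14 0.042. After quantile normalization Psma1 was 0.004, Psmb7 0.033 and Psmd14 0.041. With the fragment sum Psma1 was 0.060, Psmb7 0.079, Psmc2 0.048, Psmd2 0.006 and Psmd14 0.086. With quality weights Psma2 was -0.046, Psmb1 -0.036, Psmb6 -0.013, Psmc3 -0.042, Psmc4 -0.079, Psmc5 -0.166, Psmd4 -0.087, Psmd7 -0.044, Psmd9 -0.065, Psmd11 -0.029 and Psmd13 -0.189. After length correction Psmc4 was -0.012, Psmc5 -0.021 and Psmd13 -0.006. After length correction without replicate 6 Psma2 was -0.034, Psmb1 -0.017, Psmb4 -0.024, Psmb6 -0.015, Psmc3 -0.056, Psmc4 -0.108, Psmc5 -0.153, Psmd4 -0.078, Psmd7 -0.080, Psmd9 -0.075, Psmd11 -0.023 and Psmd13 -0.154. Leaving out 1 library spanned 0 for Psma1 (-0.111 to 0.036), Psma2 (-0.064 to 0.129), Psmb1 (-0.044 to 0.213), Psmb4 (-0.039 to 0.373), Psmb6 (-0.030 to 0.314), Psmb7 (-0.120 to 0.045), Psmc2 (-0.197 to 0.040), Psmc3 (-0.075 to 0.247), Psmc4 (-0.125 to 0.157), Psmc5 (-0.168 to 0.201, called lower without replicate 6), Psmd4 (-0.098 to 0.264), Psmd7 (-0.097 to 0.178), Psmd8 (-0.014 to 0.216), Psmd9 (-0.111 to 0.128), Psmd11 (-0.053 to 0.119), Psmd13 (-0.182 to 0.104) and Psmd14 (-0.106 to 0.059). The cause was not tested.

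Over all genes, 2151 were called with all libraries, 1366 with no filter, 4225 with quality weights, 713, 855 and 883 without WT replicate 1, 2 or 3, 1390 without PGRN KO replicate 4 and 3668 without replicate 6. Of the single genes named, the comparisons of each alternative with the reported value gave 685 in the same direction and on the same side of the threshold, 49 that newly passed it, 47 that no longer passed it and 63 of opposite sign. The labels number the libraries 1 to 3 in WT and 4 to 6 in PGRN KO and state no pairing, so no paired analysis was made.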
